A study of Mus musculus with 2 samples.

Results

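The 8 genes described here, Cd74, H2-Aa, H2-Ab1, H2-Eb1, H2-DMa, H2-DMb1, H2-Ob and Ciita, belong to the major histocompatibility complex (MHC) class II pathway of antigen presentation. They were taken by symbol, and all 8 were present among the 32285 genes counted in 2 single-cell RNA libraries of mouse bone marrow. One library came from control mice (Ctrl) and the other from mice with conditional loss of the kinase gene Map4k4 (Map4k4-cKO, here cKO), all 13 to 14 weeks old and on a C57BL/6 background. Each library mixed c-Kit+ cells, enriched with magnetic beads, with red-cell-lysed whole marrow cells, so the shares of cell types are set in part by that mixture. In cKO mice both Map4k4 alleles were floxed and were deleted by Mx1-Cre, a recombinase under an interferon-inducible promoter that is not limited to a single blood lineage, after injections of poly I:C. Ctrl mice were littermates that carried Mx1-Cre too, and their Map4k4 genotype is written -/- in the study's methods. Whether they received poly I:C, and how many mice went into each library, is not given in the sources used here. With 1 library per group no test between the libraries was possible, and genotype, injection and library cannot be told apart. Every interval below is an exact 95% interval that covers counting error only.

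MHC class II molecules are pairs of an alpha and a beta chain that carry peptides from endocytosed proteins to the cell surface, where CD4+ T cells read them. H2-Aa and H2-Ab1 encode the alpha and beta chains of the mouse I-A molecule, and H2-Eb1 encodes the beta chain of I-E, which C57BL/6 mice do not display because their I-E alpha chain gene is defective. Cd74 encodes the invariant chain, which fills the groove of a new class II molecule and guides it to the endosome. There H2-DM, the dimer of the H2-DMa and H2-DMb1 products, exchanges the last invariant chain fragment for peptide, and H2-O, whose beta chain is encoded by H2-Ob, restrains H2-DM. Ciita encodes the transcriptional co-activator that switches class II genes on. In marrow the pathway is known chiefly from B cells, dendritic cells and macrophages.

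On the GRCm38 build (the authors' mm10) the GENCODE annotation lists all 8 genes as protein coding, and 6 of them lie together on chromosome 17. These are H2-DMa at chr17:34119541-34139101, H2-DMb1 at chr17:34153072-34160230, H2-Ob at chr17:34238903-34254414, H2-Ab1 at chr17:34257689-34269419, H2-Aa at chr17:34282744-34287823 on the minus strand and H2-Eb1 at chr17:34305867-34316674. Ciita lies at chr16:10480059-10528418; Cd74 is on another chromosome. H2-DMb1 has a near-identical neighbour, H2-DMb2, and the division of reads between them is uncertain.

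Class II genes are known for a promoter module of an X box followed by a Y box, on which CIITA acts. RefSeq promoters (GRCm38.p6, 250 bases before to 50 after the start) were held for 5 of the 8 members. The Y box letters TGATTGG, searched on both strands, were found in 4 of the 5, and in neither of the 2 windows of H2-DMa. The X box, a degenerate pattern also searched on both strands, was found in 3, H2-Eb1, H2-DMb1 and H2-Ob. Of all 32851 promoters, 7.82% held the Y box letters, 4.18% the X box and 0.320% both. The Y box began 50 bases before the start of H2-Aa, 61 before that of H2-Eb1, 63 before that of H2-DMb1 and 59 before that of H2-Ob. The X box began 31, 32 and 29 bases ahead of the Y box in H2-Eb1, H2-DMb1 and H2-Ob. A match of letters is not a measured binding site, and a box that departs from the letters searched is missed. The lack of a match therefore does not show that a gene has no X or Y box. The stretches below show matches to both boxes in a beta chain gene and the H2-O gene. In the alpha chain gene only the Y box letters matched. All run 5′ to 3′ on the gene's strand from 60 bases before the Y box to 15 after it, with the matched letters in capitals. They lie at chr17:34287852-34287933 on the minus strand (H2-Aa), chr17:34305746-34305827 on the plus strand (H2-Eb1) and chr17:34238786-34238867 on the plus strand (H2-Ob).
H2-Aa: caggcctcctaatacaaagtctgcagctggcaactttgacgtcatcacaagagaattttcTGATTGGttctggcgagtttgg
H2-Eb1: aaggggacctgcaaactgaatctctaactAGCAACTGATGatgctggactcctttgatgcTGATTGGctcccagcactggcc
H2-Ob: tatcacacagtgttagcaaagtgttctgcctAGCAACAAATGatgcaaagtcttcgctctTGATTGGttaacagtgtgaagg

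After filtering, the Ctrl library held 9965 cells with 71282090 unique molecular identifiers (UMIs, each a counted RNA molecule), and the cKO library held 6718 cells with 64241692 UMIs. Cells were sorted into 16 classes by marker genes, none of them one of the 8 genes, and are named below by the type they resemble. The 10 leading genes of every class held 2 to 8 of its own markers. No class was assigned to 19.6% of Ctrl and 28.0% of cKO cells, whose median depth, 1159 and 892.5 UMIs, was below the libraries' 4111 and 6244. Map4k4 stood at 72.6 CPM (UMIs per 1000000 of the same cells) in Ctrl and 64.3 CPM in cKO, but 3′ tags outside a deleted exon do not report a deletion, so this value does not check the labels. The libraries shared 3010 cell barcodes, and profiles with a shared barcode correlated across libraries as unmatched ones did (median 0.503 against 0.506).

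In the Ctrl library the 8 genes together were highest in conventional dendritic cells (cDC), at 15286 CPM (interval 14780 to 15806, 24 cells), and in late B cells, which carry markers such as Ms4a1 and Fcer2a, at 10609 CPM (10399 to 10822, 322 cells). Macrophages followed at 4695 CPM (4415 to 4988, 114 cells), plasmacytoid dendritic cells (pDC) at 3387 (3196 to 3587, 84 cells) and plasma cells at 1163 (1084 to 1245, 66 cells). Monocytes stood at 665.8 CPM (648.3 to 683.7, 849 cells). Early B cells, gated by any UMI of Vpreb1, Igll1, Dntt or Rag1, stood at 477.4 (446.2 to 510.1, 287 cells). Stem cells and multipotent progenitors (HSC/MPP) stood at 263.6 (250.8 to 276.8, 491 cells). The remaining 132 B cells (labelled B between) had no early gene and fewer than 2 of the 8 late markers detected. They stood at 2004 CPM (1850 to 2167). Neighbours in this order were apart by more than their counting intervals, but the place of macrophages rested on single cells: 6 of the 114 held 77.4% of the class's UMIs, and without its top cell each, macrophages stood at 3190 CPM and pDC at 3268. Further down they were not: basophils and mast cells at 172.3 CPM (142.4 to 206.7), megakaryocytes at 144.7 (118.6 to 174.8), T and NK cells at 111.4 (81.8 to 148.1) and mature neutrophils (mNeu) at 94.1 (85.6 to 103.1) formed a run in which each overlapped the next. Neutrophil progenitors (ProNeu) at 80.6 CPM (75.8 to 85.5), erythroid cells at 67.9 (62.3 to 73.9) and immature neutrophils (imNeu) at 45.6 (42.5 to 48.9) closed the list. In the cKO library cDC were again highest, at 46929 CPM in 5 cells, and mNeu, at 13.1 CPM (10.9 to 15.6), and imNeu, at 13.9 CPM (12.4 to 15.5), were lowest among classes of over 100 cells and overlapped each other.

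**Figure D1:**
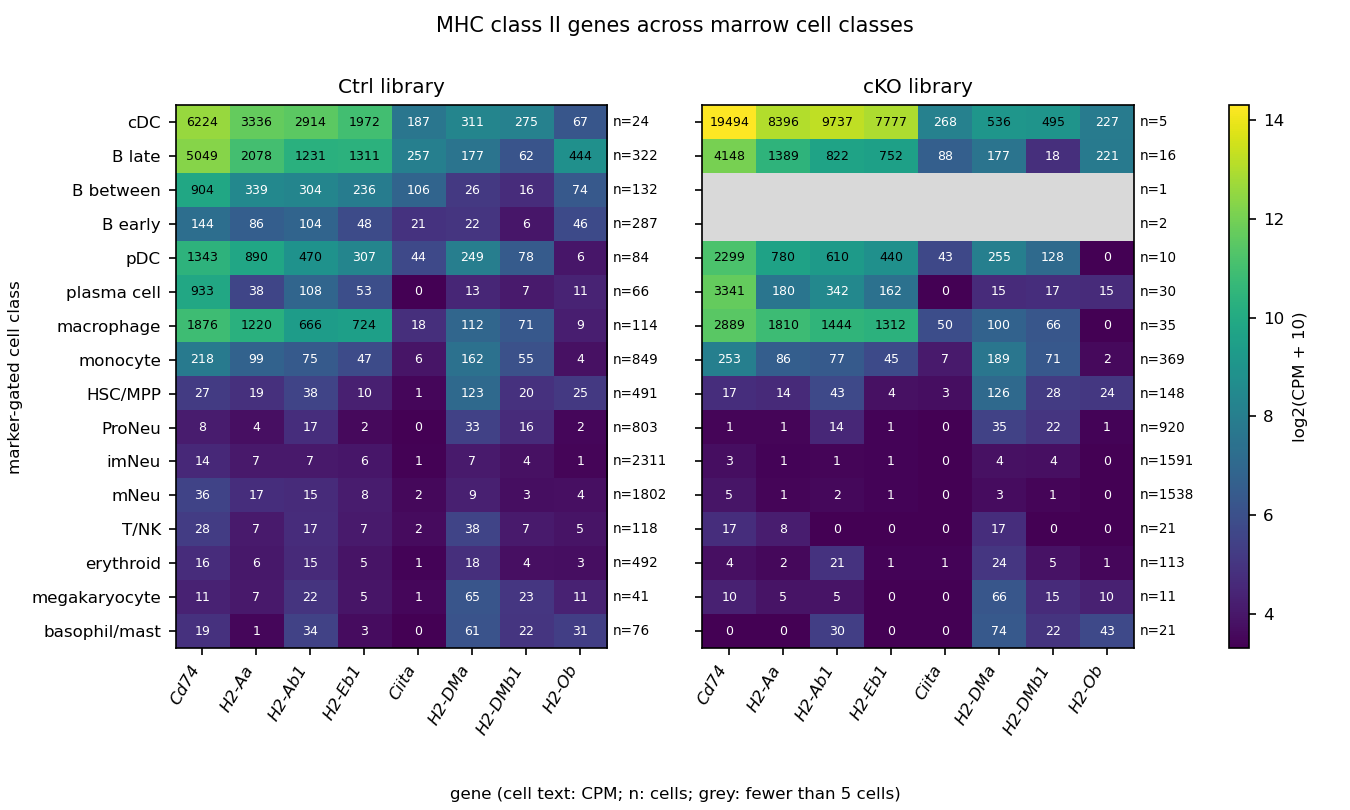
Levels of the 8 genes (columns) in each marker-defined class (rows) of the Ctrl and cKO libraries, as log2(CPM + 10) in colour with CPM printed and n cells; classes of fewer than 5 cells are grey. In Ctrl the 4 genes of the invariant, alpha and beta chains peak in cDC and late B cells, while H2-DMa also stands at 123.3 CPM in Ctrl and 125.5 CPM in cKO HSC/MPP.

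The invariant chain and the chains of the class II molecule followed the classes together, and the H2-DM and H2-O genes ran with them less closely. Over the 12 classes with at least 50 Ctrl cells, the 6 pairs among Cd74, H2-Aa, H2-Ab1 and H2-Eb1 had Pearson correlations of 0.92 to 0.99 on the log2(CPM + 10) scale. H2-DMa ran with H2-DMb1 at 0.92 but with Cd74 at 0.47. H2-Ob stood apart from both, at 0.27 with H2-DMa and 0.41 with Cd74, and came closest to Ciita at 0.62. These values describe 12 classes of 1 library, which share its depth and its free RNA.

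The same split appeared in part in the make-up of the 8 genes' UMIs. This was compared between classes and not between genes, because 3′ capture differs from gene to gene. H2-DMa gave 46.8% of them in Ctrl HSC/MPP (interval 44.3 to 49.2) and 41.0% in Ctrl ProNeu, against 24.3% in monocytes, 2.03% in cDC and 1.67% in late B cells. In cKO the same shares were 48.6%, 46.8%, 25.9%, 1.14% and 2.32%. H2-Ab1 did not follow the split. It gave 14.5% in Ctrl HSC/MPP and 20.7% in Ctrl ProNeu, against 19.1% in Ctrl cDC and 11.6% in Ctrl late B cells. Plasma cells had the most one-sided make-up, with Cd74 giving 80.2% of their UMIs in Ctrl (77.3 to 82.9) and 82.0% in cKO, whereas in late B cells it gave 47.6% and 54.5%. Ciita had no UMI in either group of plasma cells, where 3 UMIs would make 4.26 CPM in Ctrl and 6.49 CPM in cKO. H2-Ob, which gave 2.97% of all the Ctrl library's UMIs of the 8 genes, gave 9.60% in HSC/MPP and 18.1% in basophils and mast cells (11.6 to 26.3).

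Mature neutrophils are not a known source of class II at rest, so their UMIs were used as a reference level. Whether free RNA gave this level was not tested. Folds over mNeu below are folds over this reference and not over a measured level of free RNA. Their make-up resembled that of the whole library: Cd74 gave 37.9% in Ctrl mNeu and 38.1% in the Ctrl library, and 41.1% and 39.9% in cKO. This level differed between the libraries, at 94.1 CPM in Ctrl and 13.1 CPM in cKO (log2 ratio -2.84, interval -3.14 to -2.56), and mNeu were shallower in Ctrl, with a median of 2360 UMIs against 6018. Counted per cell the gap was smaller, with 456 UMIs in 1802 Ctrl cells and 129 in 1538 cKO cells. The richest Ctrl mNeu held 47 UMIs, 10.3% of the class's, against at most 2 in a cKO mNeu. The part of free RNA in this difference was not tested.

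Along the path from stem cell to neutrophil, H2-DMa, H2-DMb1 and H2-Ab1 stood well above that level per cell in the early classes. In Ctrl, HSC/MPP held 1.52 H2-DMa UMIs per cell and ProNeu 0.548, against 0.0250 in mNeu, folds of 60.8 (interval 44.95 to 84.0) and 21.9 (16.1 to 30.5). In cKO the H2-DMa values were 1.93, 0.558 and 0.0176. H2-DMb1 stood at 0.244 UMIs per cell in HSC/MPP, 0.259 in ProNeu and 0.00832 in mNeu of Ctrl, and at 0.426, 0.357 and 0.00650 in cKO. H2-Ab1 stood at 0.471, 0.277 and 0.0411 UMIs per cell in Ctrl and at 0.662, 0.219 and 0.0111 in cKO. As a share of all UMIs, however, H2-Ab1 was about level between ProNeu (222 of 13316843) and mNeu (74 of 4847721) in Ctrl. In cKO it gave 201 of 14793254 UMIs in ProNeu and 17 of 9845873 in mNeu. H2-DMa lay 31.8-fold (21.6 to 48.7) and H2-DMb1 54.8-fold (29.4 to 115.4) above mNeu in cKO ProNeu.

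Cd74 and H2-Aa lay much closer to the mNeu level in ProNeu. In Ctrl, Cd74 stood at 0.127 UMIs per cell in ProNeu and 0.0960 in mNeu, a fold of 1.32 (interval 1.03 to 1.70), and in cKO at 0.0163 and 0.0345, a fold of 0.473 (0.248 to 0.852). H2-Aa was at 1.31-fold the mNeu level in Ctrl ProNeu (0.901 to 1.88) and at 2.58-fold in cKO (1.14 to 6.10), where the interval lay above 1. In Ctrl HSC/MPP, Cd74 at 0.334 UMIs per cell was 3.48-fold above mNeu (2.79 to 4.33), and H2-Ob at 0.312 was 31.2-fold above (19.1 to 54.0). H2-Ob was lower in ProNeu, at 0.0249 UMIs per cell in Ctrl and 0.0109 in cKO. ProNeu and HSC/MPP were deeper than mNeu, with Ctrl medians of 16643 and 10642 UMIs. Cells of at least 1000 UMIs were thinned to 1000, and smaller cells were left out. The expected share with a UMI of the 8 genes was then 23.6% of Ctrl HSC/MPP, 7.76% of ProNeu and 8.01% of mNeu. Before thinning, over all cells of these classes, it was 86.8%, 62.4% and 16.9%. In cKO the thinned shares were 22.9%, 6.46% and 1.60%.

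**Figure D2:**
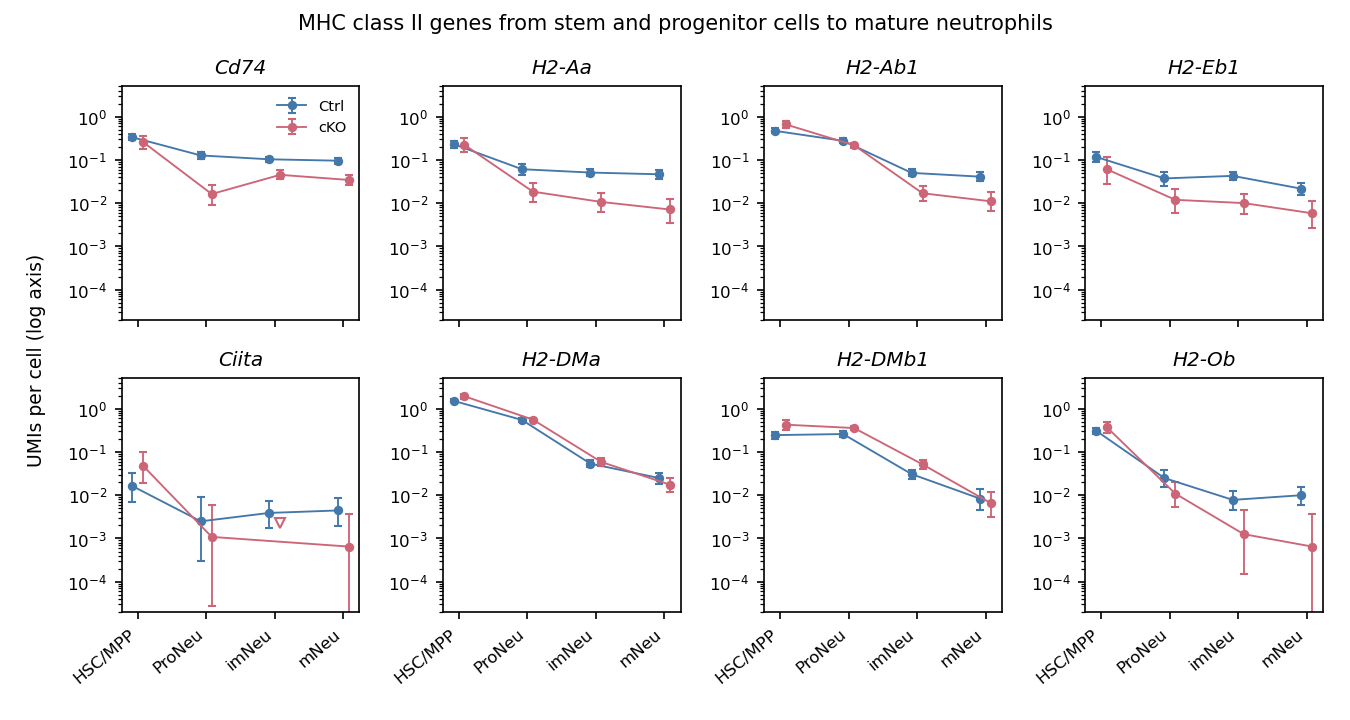
UMIs per cell (log axis) of each gene along HSC/MPP, ProNeu, imNeu and mNeu in both libraries, with exact 95% Poisson intervals as bars; an open triangle marks the interval's upper end where no UMI was seen. From HSC/MPP to mNeu, H2-DMa goes from 1.52 to 0.0250 UMIs per cell in Ctrl and from 1.93 to 0.0176 in cKO, while Cd74 in ProNeu lies at 0.127 and 0.0163, close to or below its mNeu level.

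Basophils and mast cells held H2-DM, H2-O and H2-Ab1 RNA with little Cd74. They held 0.276 H2-Ob UMIs per cell in Ctrl (27.7-fold over mNeu, interval 14.0 to 55.1) and 0.476 in cKO, and 0.540 and 0.810 H2-DMa UMIs per cell. Cd74 had 13 UMIs in their 76 Ctrl cells, 1.78-fold the mNeu level (0.930 to 3.13), and none in 21 cKO cells, where 3 UMIs would make 13.0 CPM. H2-Ab1 stood at 0.303 UMIs per cell in their Ctrl cells (7.37-fold over mNeu, 4.40 to 11.9) and 0.333 in their cKO cells (30.2-fold, 10.6 to 76.5). H2-Aa and H2-Eb1 had 1 and 2 UMIs there in Ctrl and none in cKO. Ciita had no UMI in these cells in either library. Megakaryocytes held 1.17 H2-DMa UMIs per cell in Ctrl and 1.18 in cKO, and erythroid cells 0.295 and 0.628. Markers of a second class passed as well in 24 of 41 Ctrl and 5 of 11 cKO megakaryocytes. The same held for 17 of 76 Ctrl and 10 of 21 cKO basophils and mast cells. In Ctrl the class with the next most high markers was HSC/MPP for both. The part of such cells in these levels was not tested. Erythroid cells also held Cd74, at 0.262 UMIs per cell in Ctrl (2.73-fold over mNeu, 2.16 to 3.45) and 0.0973 in cKO (2.82-fold, 1.33 to 5.47). They were deeper than mNeu, however, with medians of 11872 against 2360 UMIs in Ctrl and 20180 against 6018 in cKO. As a share of all UMIs, Cd74 was lower in erythroid cells than in mNeu in both libraries. It gave 129 of 7979932 against 173 of 4847721 in Ctrl, and 11 of 2986887 against 53 of 9845873 in cKO.

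Over all cells, the 8 genes stood at 432.1 CPM in Ctrl (interval 427.3 to 437.0, 30802 UMIs) and 208.3 CPM in cKO (204.8 to 211.9, 13382 UMIs), a log2 ratio of -1.05 (-1.08 to -1.02). In such a sum, fewer cells of a type and less RNA per cell cannot be told apart. The median gene stood at -0.52 in the same comparison, and relative to it the ratio was -0.53. The ratios were -2.45 for Ciita, -2.39 for H2-Ob, -1.60 for H2-Aa, -1.30 for H2-Eb1, -1.07 for H2-Ab1, -0.98 for Cd74 and -0.57 for H2-DMa. H2-DMb1 stood at -0.19, and at 0.33 once the median gene was set to 0. Counting a gene as called at 2-fold or more, 5 of the 8 were lower in cKO and 0 higher, beside 22.4% of all genes lower and 1.87% higher. The split of all calls was 290 higher and 3473 lower by totals, and 844 and 1542 with median-of-ratios size factors.

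The classes that supplied these UMIs differed between the libraries. B cells were 7.44% of Ctrl cells and held 36.4% of the 8 genes' UMIs (interval 35.9 to 36.9), while in cKO they were 0.283% of cells, 19 in number, and held 6.60% (6.18 to 7.03). Plasma cells were 0.662% of Ctrl and 0.447% of cKO cells, and held 2.66% and 14.1% of the UMIs. Monocytes held 17.8% and 26.5%, cDC 11.2% and 17.0%, ProNeu 3.48% and 8.19%, and unassigned cells 9.40% and 12.3%. The unassigned share rested on a few cells of at least 50 UMIs of the 8 genes. In Ctrl 10 such cells held 47.15% of it, and 7 of them had at least 2 cDC markers high. In cKO 2 such cells held 61.18% of it, and 0 had at least 2 cDC markers high. Their median depths were 6949 and 8964 UMIs. Without B cells the log2 ratio was -0.56 (-0.59 to -0.53), or -0.06 relative to the median gene of those cells at -0.50. Plasma cells gave 819 of these 19591 UMIs in Ctrl and 1883 of 12499 in cKO. Without the richest cell of each library, all cells but B stood at 279.5 CPM in Ctrl and 183.0 in cKO. With plasma cells left out too, they stood at 270.3 and 154.7 CPM. The gap without B cells therefore depended in part on plasma cells.

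Each gene had its own sources. B cells held 63.2% of Ciita UMIs in Ctrl and 12.5% in cKO, and 56.1% and 16.6% of H2-Ob UMIs. For H2-DMa, whose ratio over all cells was the second smallest, B cells held 5.70% and 0.978%, monocytes 36.0% and 40.8%, HSC/MPP 20.1% and 12.7%, and ProNeu 11.9% and 22.8%. Plasma cells held 5.60% of Cd74 UMIs in Ctrl and 28.9% in cKO. Cells with at least 10 UMIs of the 8 genes numbered 534 in Ctrl and 133 in cKO; 58.6% of them were B cells in Ctrl, and 31.6% monocytes, 19.5% plasma cells and 12.0% B cells in cKO.

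**Figure D3:**
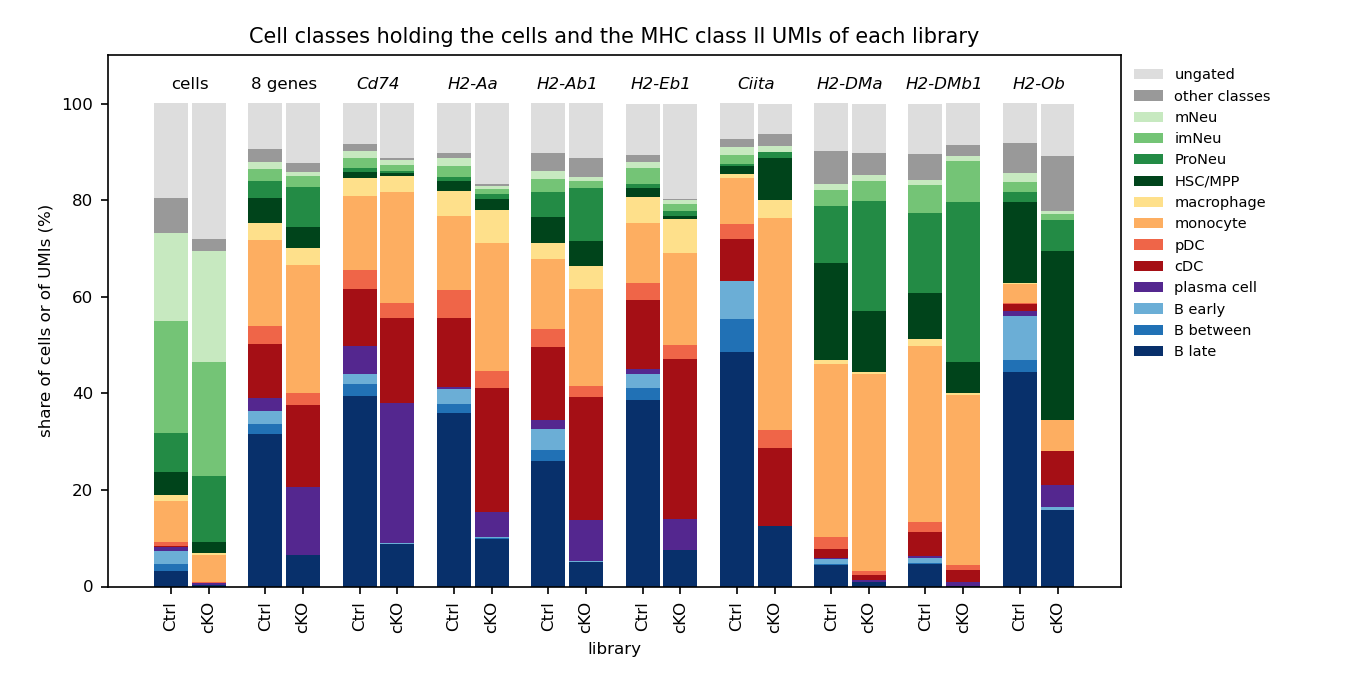
Share (percent) of cells, of the UMIs of all 8 genes and of the UMIs of each gene that lay in each class (colours) in the Ctrl and cKO libraries; ungated cells had no class. B cells hold 36.4% of the summed UMIs in Ctrl and 6.60% in cKO, and plasma cells 2.66% and 14.1%.

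Within classes, the summed level was compared with the median gene of the same class. HSC/MPP stood at 263.6 CPM in Ctrl and 258.6 in cKO (log2 ratio -0.03, interval -0.17 to 0.11), with the median gene at -0.11. ProNeu stood at 80.6 and 74.1 CPM (-0.12, -0.24 to 0), with the median gene at -0.27. Monocytes stood at 665.8 and 730.5 CPM (0.13, 0.07 to 0.19), with the median gene at -0.20. The interval of HSC/MPP held 0, and that of monocytes lay above it. B cells stood at 3667 CPM in Ctrl and 6904 in cKO (0.91, 0.81 to 1.01; median gene -0.36) and plasma cells at 1163 and 4072 CPM (1.81, 1.69 to 1.93; median gene -0.26).

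**Figure D4:**
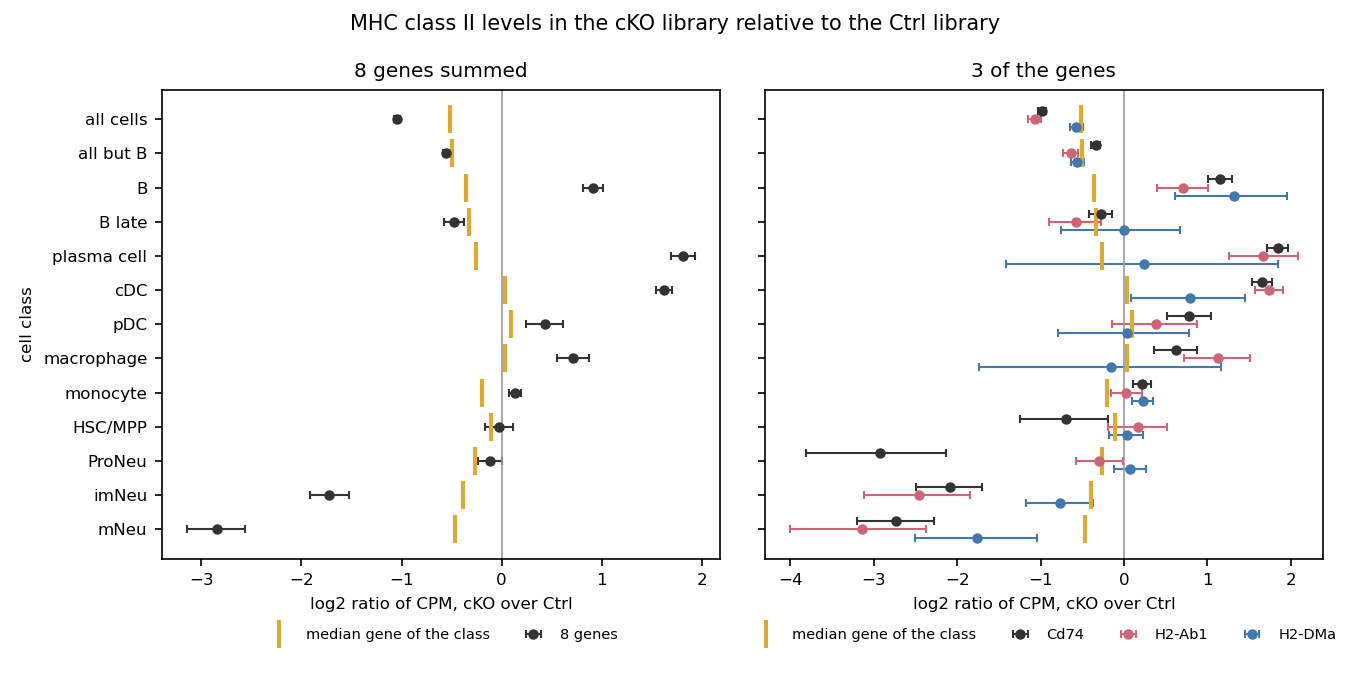
Log2 ratio of CPM, cKO over Ctrl, by class for the summed level (left) and for Cd74, H2-Ab1 and H2-DMa (right), with exact 95% intervals as bars and the median gene of the class as a vertical mark. The summed level lies at -1.05 over all cells, -0.03 in HSC/MPP, 0.13 in monocytes and 1.81 in plasma cells.

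In HSC/MPP, H2-DMa stood at 123.3 CPM in Ctrl and 125.5 in cKO (log2 ratio 0.03, interval -0.18 to 0.23), and H2-Ob at 25.3 and 24.1 (-0.07, -0.54 to 0.39). Cd74 stood at 27.1 and 16.7 CPM (-0.70, -1.25 to -0.19). Per cell, HSC/MPP held 0.334 Cd74 UMIs in Ctrl and 0.257 in cKO, while mNeu held 0.0960 and 0.0345. The part of free RNA in this Cd74 difference was not tested. At 2-fold or more, 1 of the 8 genes was higher in cKO, Ciita with 8 and 7 UMIs, and 1 lower, H2-Eb1 with 58 and 9 UMIs, beside 2.13% and 5.62% of all genes. H2-Eb1 turned to 0.54 when cells were thinned to 1000 UMIs before sorting. In ProNeu, H2-DMa stood at 33.0 and 34.7 CPM (0.07, -0.12 to 0.26) and H2-DMb1 at 15.6 and 22.2 CPM (0.51, 0.25 to 0.76). Of the 7 genes with enough UMIs, 4 were lower in ProNeu, beside 5.43% of all genes, and 0 higher, beside 1.40%. These were Cd74, at 7.66 and 1.01 CPM (-2.92, -3.81 to -2.13), H2-Aa (-1.68), H2-Eb1 (-1.60) and H2-Ob (-1.15). The first 3 of them lay at 1.31 to 1.73-fold the mNeu level in Ctrl ProNeu, and the mNeu level itself was lower in cKO, as given above. Per cell, ProNeu held 0.127 Cd74 UMIs in Ctrl and 0.0163 in cKO, while mNeu held 0.0960 and 0.0345. The part of free RNA in these ProNeu differences was not tested. Calls by totals numbered 256 higher and 674 lower in HSC/MPP and 172 and 667 in ProNeu; with median-of-ratios size factors they numbered 357 and 558, and 318 and 399.

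Late B cells carried more class II RNA than early ones. The UMIs of the 8 genes per cell ran from 0 to 68 with a median of 1 in early Ctrl B cells. They ran from 0 to 402 with a median of 25.5 in late Ctrl B cells. In the 132 cells that passed neither gate they ran from 0 to 31 with a median of 2. Shallow late cells can fall into that remainder, so it is not a measured stage. The cell with 402 also had 4 monocyte and 4 cDC markers high, beside 7 of B cells. From early to late Ctrl B cells, Cd74 stood at 144.4 and 5049 CPM, H2-Ob at 45.9 and 443.5, Ciita at 20.8 and 256.7, and H2-DMa at 22.4 and 177.0. All 4 were apart between these stages by more than their counting intervals.

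The cKO library held 16 late B cells, 2 early ones and 1 between, against 322, 287 and 132 in Ctrl, so the ratio over all B cells compared different stages. Of the 8 genes, 2 were at least 2-fold higher over all B cells, H2-DMa and Cd74, beside 7.07% of all genes, and 0 lower, beside 33.7%. Among late B cells, by summed UMIs, the level was 10609 CPM in Ctrl and 7615 in cKO (log2 ratio -0.48, interval -0.58 to -0.38; -0.15 relative to the median gene). Its direction depended on a few cells. In cKO, 2 of the 16 cells, with 47701 and 16335 UMIs in all, held 20 and 3 UMIs of the 8 genes; without the 2 deepest cells of each library, left out after seeing the data, the levels were 10553 and 17091 CPM and the ratio 0.70. As the mean of per-cell proportions it was 0.41. The 16 cKO cells held from 3 to 95 UMIs of the 8 genes, with a median of 51, at a median depth of 4036 UMIs against 2318 in Ctrl. Ciita stood at 256.7 and 88.4 CPM (-1.54, -2.62 to -0.63) and H2-Ob at 443.5 and 221.1 CPM (interval of the log2 ratio -1.65 to -0.42), but without those cells at 262.4 and 203.9 CPM (-0.36) and at 451.7 and 448.7 CPM (-0.01). Calls over all B cells numbered 742 higher and 3539 lower by totals, and 1382 and 2862 with median-of-ratios size factors.

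**Figure D5:**
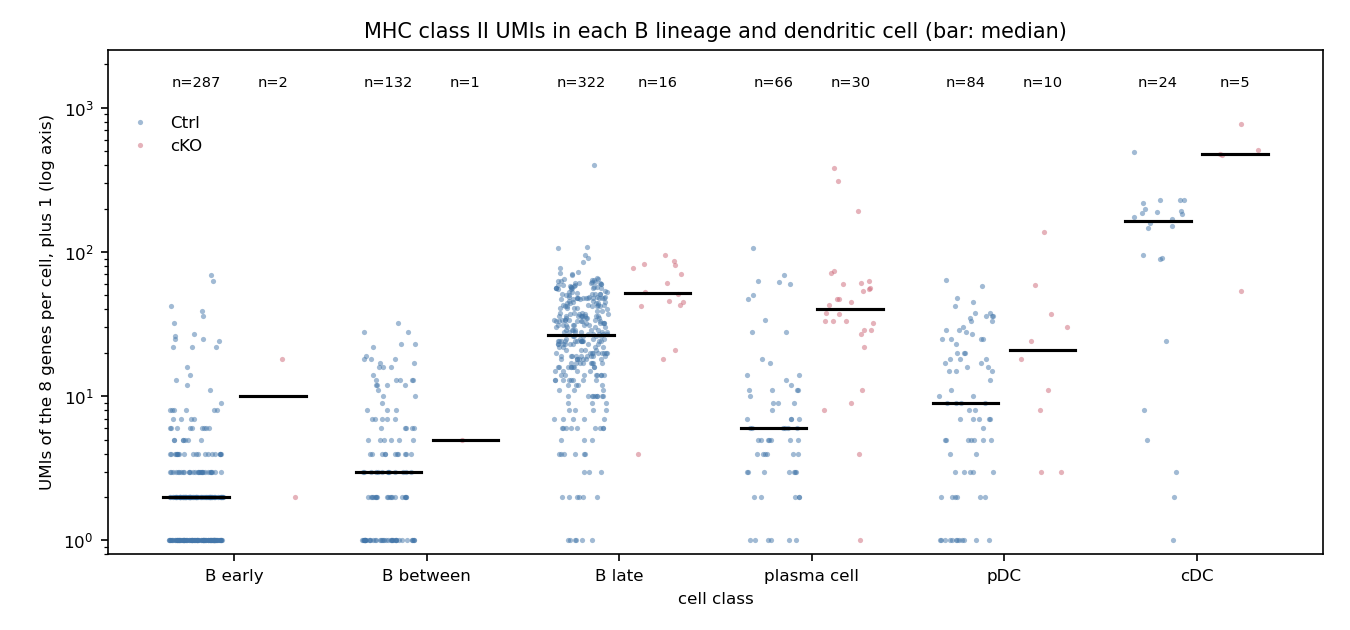
UMIs of the 8 genes plus 1 (log axis) in single cells (points) of the B lineage and dendritic classes by library, with medians as bars. Late B cells have medians of 25.5 in Ctrl and 51 in cKO, and plasma cells 5 and 39.5.

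Plasma cells differed between the libraries in both level and heavy chain. The 66 Ctrl cells held from 0 to 106 UMIs of the 8 genes with a median of 5, and the 30 cKO cells from 0 to 383 with a median of 39.5. The groups overlapped, and median depth was 10192 and 13762 UMIs per cell. Cd74 stood at 932.7 CPM in Ctrl and 3341 in cKO (log2 ratio 1.84, interval 1.71 to 1.97), and H2-Aa at 38.3 and 179.5 (2.23, 1.59 to 2.91). Of the 7 genes with enough UMIs, 5 were at least 2-fold higher, beside 4.95% of all genes, and 0 lower, beside 19.4%. H2-Ab1 and H2-Eb1 were at 1.66 and 1.63, while H2-DMb1, at 1.29, rested on 5 and 8 UMIs. H2-Ab1 turned to -0.15 among cells that passed the gate of a single lineage. Calls numbered 292 higher and 1144 lower by totals, and 461 and 864 with median-of-ratios size factors.

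By the heavy chain with the most UMIs, Ctrl had 55 Igha, 6 Ighg and 2 Ighm plasma cells, and cKO had 8 Igha, 10 Ighg and 11 Ighm; 3 and 1 had under 100 heavy chain UMIs. Within Igha cells the 8 genes stood at 840.0 CPM in Ctrl, with 0 to 68 UMIs per cell and a median of 5, and at 1578 CPM in cKO, with 21 to 62 and a median of 31.5. Within Ighg cells they stood at 2761 and 2958 CPM, with medians of 53.5 and 50. The 11 cKO Ighm cells stood at 8249 CPM, and 3 of them, with 383, 312 and 192 UMIs, held 47.1% of the class's UMIs. Markers of a second class passed as well in 38 of 66 Ctrl and 17 of 30 cKO plasma cells, and without those cells the log2 ratio was 1.02. Their part in the result was not tested.

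Dendritic cells and macrophages were few. Of the 24 Ctrl cDC, 22 had more cDC1 markers (Clec9a, Xcr1, Batf3, Wdfy4, Naaa) than cDC2 markers (Cd209a, Clec10a, Mgl2) detected. The cDC1 list was the longer, so this count does not show which subset was present. In Ctrl cDC the 8 genes ran from 0 to 489 UMIs per cell with a median of 164. The lowest cells held 7, 4, 2, 1 and 0, at depths of 22579, 12993, 11134, 9319 and 1680 UMIs. Markers of a second class passed as well in 13 of 24 Ctrl and 1 of 5 cKO cDC. The part of such cells in the levels was not tested. The 5 cKO cDC held 769, 512, 475, 466 and 53 UMIs. All but the last lay above the Ctrl median, and the ranges overlapped. pDC held from 0 to 63 UMIs with a median of 8 in 84 Ctrl cells, and from 2 to 137 with a median of 20 in 10 cKO cells. Macrophages held from 0 to 358 in Ctrl and from 0 to 355 in cKO, each with a median of 1. A single cKO macrophage gave 76.8% of that class's UMIs: with all cells the log2 ratio was 0.71, and without the top cell of each library it was -0.64. For pDC the ratio was 0.43, and -0.12 without the top cells.

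Monocytes held their class II RNA unevenly. The UMIs of the 8 genes ran from 0 to 395 in Ctrl with a median of 2, and from 0 to 357 in cKO with a median of 3, at median depths of 7705 and 11246 UMIs. The 20 Ctrl monocytes with at least 50 UMIs held 48.1% of the class's UMIs, and 17 of them had at least 2 cDC markers high, against 273 of the other 829. In cKO the 10 such cells held 57.0%, and 9 had at least 2 cDC markers high, against 145 of the other 359. Cd74 stood at 217.5 CPM in Ctrl and 253.1 in cKO (log2 ratio 0.22, interval 0.11 to 0.32), H2-DMa at 161.6 and 188.9 (0.23, 0.10 to 0.35) and H2-Aa at 98.9 and 86.2 (-0.20, -0.37 to -0.03). H2-Aa turned to 0 with median-of-ratios size factors and to 0.21 among cells of a single lineage, and Cd74 was at 0 when cells were thinned before sorting. H2-Ob, with 35 and 10 UMIs, was the 1 gene of 8 at least 2-fold lower, beside 8.91% of all genes, and 0 were higher, beside 1.83%. Calls numbered 214 higher and 1043 lower by totals, and 347 and 761 with median-of-ratios size factors. Thinned to 1000 UMIs before sorting, the monocyte ratio was -0.05.

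The other genes of the pathway were read from a fixed list. Over all cells, 2 of 3 genes of assembly and loading were at least 2-fold lower in cKO, H2-Eb2 (log2 ratio -1.83) and H2-DMb2 (-1.11), and so were 4 of 11 transcription factors, beside 22.4% of all genes. These were Irf4 (-2.48), Prdm1, a repressor of Ciita in plasma cells (-1.73), Irf8 (-1.37) and Rfx5, a subunit of the X box binding complex (-1.01). None of the 4 proteolysis genes was, and 1 each of the turnover, co-stimulation and MHC class I lists was: Cd83 (-1.38), Cd40 (-1.71) and Nlrc5, the class I counterpart of Ciita (-1.26). No list had a gene 2-fold higher over all cells.

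Within monocytes, 2 of the 4 proteolysis genes were at least 2-fold higher in cKO, beside 1.83% of all genes. Ifi30, the endosomal thiol reductase, stood at 453.0 and 1041 CPM (log2 ratio 1.20, interval 1.14 to 1.26), and the protease gene Ctsl at 23.7 and 60.9 CPM (1.36, 1.10 to 1.63). Ctss, the protease that trims the invariant chain in many antigen-presenting cells, stood at 602.4 and 899.9 CPM (0.58, 0.52 to 0.64). In HSC/MPP, Irf8, a regulator of monocyte and dendritic cell fate, stood at 162.0 CPM in Ctrl and 72.4 in cKO (-1.16, -1.41 to -0.92), the only 1 of 10 transcription factors with enough UMIs that was 2-fold lower, beside 5.62% of all genes. In plasma cells 3 of 5 class I genes and 2 of 4 proteolysis genes were at least 2-fold higher, beside 4.95% of all genes. B2m, at 1914 and 4307 CPM (1.17), and H2-K1, at 425.9 and 1073 CPM (1.33), encode the class I light chain and a heavy chain, and Ctss stood at 99.4 and 434.6 CPM (2.13). The others, Nlrc5 and Ctsl, rested on 7 and 11, and 5 and 7 UMIs. Prdm1, a marker of the plasma cell gate itself, stood at 149.1 and 62.7 CPM there (-1.25, -1.90 to -0.64).

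Over the 6 classes with at least 50 cells in each library, the genes whose levels ran most like the summed level were Slc29a3 (Pearson correlation 0.993), Zup1 (0.993), Gm43305 (0.992), Vwa5a (0.990) and Plekho1 (0.989). Those classes leave out B cells, plasma cells and dendritic cells. Over the 12 Ctrl classes, a choice made after seeing the data, the leading genes were Rhoq (0.882), Pou2f2 (0.873), Cd180 (0.869), Cd2ap (0.859) and Epb41l2 (0.852). H2-Ab1 stood at 0.989 and Cd74 at 0.970. Each member is part of the sum, so its value cannot be set against those of genes outside it. H2-Ob was the least like the sum of its own set, at 0.483.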

How the data were processed

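The authors aligned the reads with Cell Ranger 5.0.0 to mm10 and deposited, for each library, raw UMI counts per gene and cell; these counts were used as deposited. The study's own cell filters were applied here (200 to 9000 genes, at most 30% mitochondrial counts), leaving 9965 of 10220 and 6718 of 6872 barcodes; no doublet caller was run. A marker was high in a cell with at least 1 UMI and at least 2 times the pooled share, a multiple chosen after seeing the data, and a class needed at least 3 high markers and 1 more than any other. UMIs were summed per class and library, and given as CPM with exact Poisson intervals; ratios have exact conditional binomial and shares Clopper-Pearson intervals. Genes with at least 10 UMIs over both libraries were compared and called at 2-fold. Named genes were the 8 members, the pathway list, the 5 most correlated genes and Map4k4. Members and lists were chosen with earlier results of these data known. Scripts were tested on simulated data. Python 3.11.15, numpy 2.4.6, scipy 1.17.1, pandas 2.3.3 and matplotlib 3.10.9 were used. Alternatives covered cell filters, gates, scaling and single cells. Cells that passed the gate of a single lineage were also taken alone, which is not a doublet call.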

Additional observations from a re-analysis of the deposited data

How the results depend on the processing

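No paired analysis was possible because each group had a single library, numbered 1. Over the summed-level ratios, 46 of 88 values under an alternative stayed within the counting interval of the reported one, 38 moved and 4 turned. Of the single-gene and smaller-class ratios, 793 of 969 stayed, 146 moved and 30 turned. A change of sign was counted as turned only where the reported interval excluded 0. Values that moved therefore include changes of sign, such as 0.17 in HSC/MPP with thinned cells and 0.15 in ProNeu with median-of-ratios size factors. Except where a value or the alternative's construction shows it, the cause was not tested. Few cells limit the cKO B cells (19), cDC (5) and pDC (10), and a median of 899 UMIs per cell limits the cKO macrophages.

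With median-of-ratios size factors the summed log2 ratio was -0.53 over all cells, -0.06 without B cells, 0.15 in ProNeu, -2.37 in mNeu, 0.33 in monocytes, 1.28 in B cells, -0.15 in late B cells and 2.06 in plasma cells, and 5 gene ratios turned: H2-DMb1 to 0.33 over all cells and 0.33 without B cells, Cd74 to 0.16 without B cells and 0.05 in late B cells, and H2-Aa to 0 in monocytes. With the mean of per-cell proportions it was -1.60, -0.78 without B cells, -0.20 in HSC/MPP, -0.46 in ProNeu, -2.33 in mNeu, 1.19 in B cells, 2.07 in plasma cells and 0.41 in late B cells, where Cd74 (0.60), H2-Aa (0.37), H2-Ab1 (0.30) and H2-Eb1 (0.08) turned too. Without immunoglobulin, haemoglobin and mitochondrial genes in the total, plasma cells stood at 1.96. Without Cd74, the ratio was -1.10 over all cells, -0.68 without B cells, 0 in ProNeu, 0.67 in B cells, -0.68 in late B cells and 1.67 in plasma cells.

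With cells under 2000 UMIs left out, it was -0.90 over all cells, -0.52 without B cells and 1.11 in B cells, and Ctrl B cells held 31.0% of UMIs and 6.30% of cells, Ctrl plasma cells 3.09% and 0.855%. With 1 more marker, it was -0.59 without B cells, 0.07 in monocytes and -0.59 in late B cells, and B cells held 34.3% of UMIs and 6.76% of cells in Ctrl and 5.93% of UMIs in cKO. With cells thinned before sorting, it was -0.66 without B cells, 0.17 in HSC/MPP, -0.05 in monocytes, 1.57 in B cells, 0.11 in late B cells and 2.11 in plasma cells. H2-Eb1 (0.54) and H2-DMb1 (-0.17) turned in HSC/MPP, Cd74 (0) in monocytes, H2-Ab1 (-0.01), H2-Eb1 (-0.36) and H2-DMa (-0.24) in cDC, and Cd74 (0.26), H2-Aa (0.14) and H2-Ab1 (0.07) in late B cells. B cells then held 30.1% of UMIs and 6.70% of cells in Ctrl and 6.05% of UMIs in cKO, and plasma cells 1.32% and 0.296% in Ctrl and 5.58% and 0.206% in cKO.

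With cells of a single lineage, the ratio was -0.62 without B cells, -2.49 in mNeu, 0.44 in monocytes, where H2-Aa turned to 0.21, and 1.02 in plasma cells, where H2-Ab1 turned to -0.15. Ctrl B cells held 33.3% of UMIs, and plasma cells 1.04% of UMIs and 0.281% of cells in Ctrl and 2.91% and 0.194% in cKO. Without the cell richest in class II UMIs in each library, chosen after seeing the data, it was -1.11 over all cells and -0.61 without B cells, and it turned to -0.64 in macrophages (Cd74 -0.60, H2-Aa -0.87, H2-Eb1 -0.85), -0.12 in pDC and -2.16 in early B cells. Without the 2 deepest late B cells of each library, also chosen after seeing the data, late B cells turned to 0.70 (Cd74 0.87, H2-Aa 0.66, H2-Ab1 0.64, H2-Eb1 0.39).

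Counts of genes past 2-fold grew with no UMI minimum, since genes of few UMIs then enter: to 1197 higher and 5913 lower over all cells, 7348 lower in B cells, 1515 and 3786 in plasma cells, 947 and 3152 in monocytes, 1247 and 2782 in HSC/MPP, and 1244 and 2415 in ProNeu. With size factors they were 844 and 1542 over all cells, 1382 higher in B cells, 461 higher in plasma cells, 347 higher in monocytes, and 318 and 399 in ProNeu.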
